A study of Mus musculus with 4 samples.

Results

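The G1 cyclins, their kinases and the pocket proteins were followed in mouse liver tumors with p53 off and after p53 had been switched back on. The 10 genes were taken by name: the D-type cyclin genes Ccnd1, Ccnd2 and Ccnd3, the E-type cyclin genes Ccne1 and Ccne2, the kinase genes Cdk2, Cdk4 and Cdk6, and the pocket protein genes Rbl1 and Rbl2. All probe sets annotated to exactly 1 of these symbols were used, 30 of the 45037 probe sets that are not controls, and each of the 10 genes, of 18193 in all, was also represented by its brightest probe set. No member was lost to a filter, because none was applied. The gene of the retinoblastoma protein, also a pocket protein, is not among the 10 members. The tumors came from liver progenitor cells that had been put into the liver of host mice, were driven by an activated RAS oncogene and carried a doxycycline-repressible hairpin against p53 in both groups. The 2 p53 off tumors had 0 days of doxycycline and kept making the hairpin. The 2 p53 on tumors had 8 days of doxycycline in the feed, which shuts the hairpin off. Strain and age are not given in the labels used here, and the labels do not say whether replicates are separate animals. The p-values then cover only the spread of these arrays, possibly technical, and restored p53, doxycycline itself and the 8 days of time cannot be told apart.

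In a dividing cell, mitogens raise the D-type cyclins, which pair with CDK4 or CDK6, while the E-type cyclins pair with CDK2 closer to the start of DNA synthesis. These kinases phosphorylate the pocket proteins, the retinoblastoma protein with its relatives p107 (Rbl1) and p130 (Rbl2), and so release E2F factors that switch on S phase genes. p53 acts on this circuit mainly through p21, the product of Cdkn1a, which inhibits cyclin-CDK complexes; p130 and p107 then join the DREAM complex, a repressor of cell cycle genes.

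Values are log2 expression values on the RMA scale. A change is the mean of p53 on minus the mean of p53 off, with its standard error from limma, and a gene was called when its limma p-value was under 0.05 after Benjamini-Hochberg adjustment for the 18193 genes. Probe sets differ in brightness, so levels are not ranked between genes; where 1 gene is subtracted from another within an array, only the move of that difference between groups is read. By this test 4 of the 10 genes fell (Ccne2, Cdk4, Ccnd2 and Ccne1), 1 rose (Rbl2) and 5 were not called (Ccnd1, Ccnd3, Cdk2, Cdk6 and Rbl1). Of all genes 28.7% were called, 14.7% as lower and 14% as higher. With 10 members, the 5 called are not read as a share above that background. The median change was -0.14 over the members and 0.02 over all genes. The groups did not overlap in 9 of the 10 genes, 3 with higher and 6 with lower p53 on arrays, where 66.7% of all genes did not overlap, 36.3% higher and 30.4% lower. Of the 30 probe sets 16 were called, 3 as higher and 13 as lower, beside 22.8% of all probe sets (11.3% higher, 11.5% lower), and 23 did not overlap (6 higher, 17 lower), beside 63.8% (36.1% higher, 27.7% lower).

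**Figure D1:**
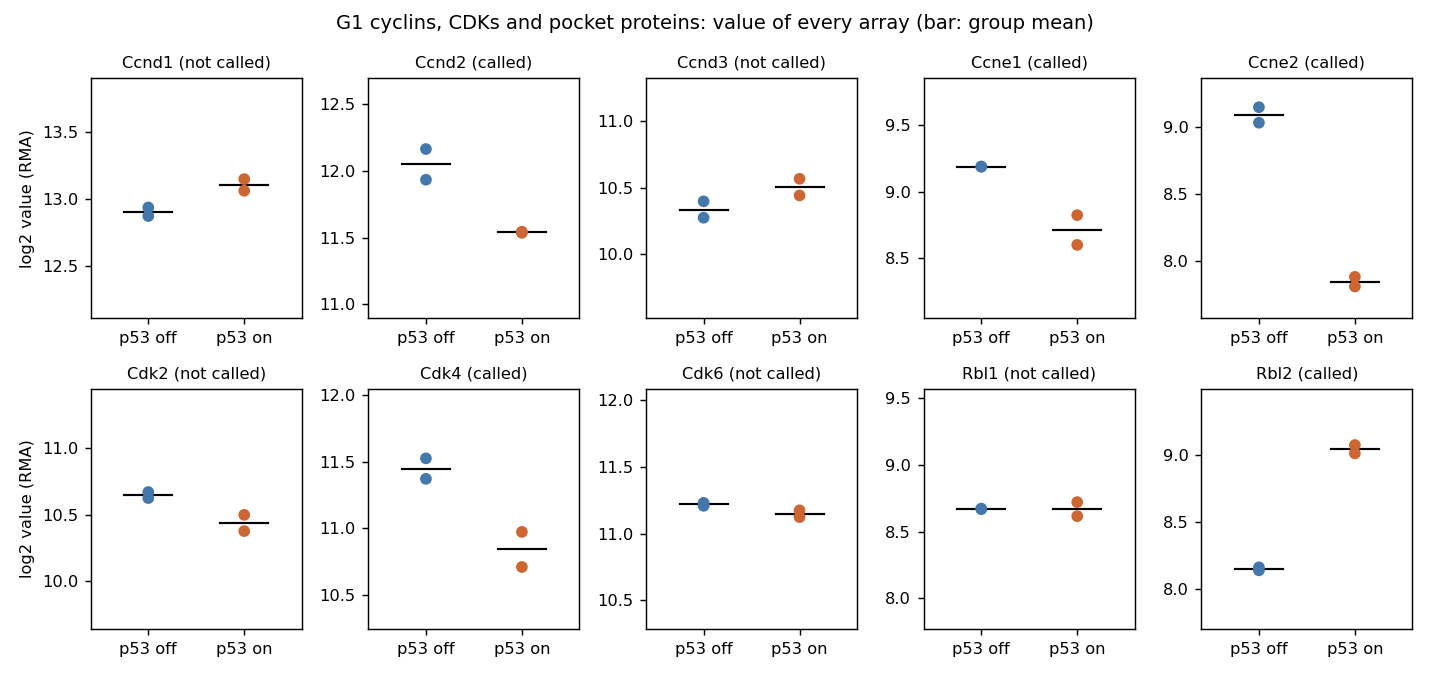
Log2 value (RMA, vertical axis; every panel spans the same number of units) of the brightest probe set of each of the 10 genes in the 2 p53 off (blue) and the 2 p53 on (orange) arrays, with a bar at each group mean. Ccne2, Cdk4, Ccnd2 and Ccne1 sit lower and Rbl2 sits higher in p53 on; only for Rbl1 do the groups overlap.

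The E-type cyclins, which drive CDK2 into S phase, both fell, and Ccne2 showed the fall of largest size among the 10 genes. Ccne2 read 9.04 and 9.15 in the p53 off arrays and 7.88 and 7.81 in the p53 on arrays. Both p53 on arrays lay more than 1 log2 unit below both p53 off arrays. The change was -1.25 ± 0.082 (SE, n = 2 against 2), or 2.38-fold lower, with a limma adjusted p of 0.00075. Ccne1 read 9.19 and 9.19 with p53 off and 8.82 and 8.60 with p53 on. Its groups did not overlap either, but the p53 on arrays stood apart from each other by 0.22. The change was -0.48 ± 0.098 (1.39-fold lower; limma adjusted p = 0.0185). The second Ccne1 probe set also fell, from 8.75 and 8.67 to 7.92 and 8.23, a change of -0.63 ± 0.12.

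The fall of Ccne2 kept its call under all 13 alternative settings, with limma adjusted p from 0.00022 to 0.0113. Ccne2 has only 1 probe set, so settings that average or swap a gene's probe sets could not move its change of -1.25. The call of Ccne1 was lost without p53 off replicate 1 (limma adjusted p = 0.087) and without p53 off replicate 2 (0.106), against a range of 0.0032 to 0.106 over the alternatives. Its size was then -0.48 in both cases, as with all arrays. Within each array the value of Ccne1 minus that of Ccne2 was 0.15 and 0.035 with p53 off and 0.95 and 0.79 with p53 on. The ratio of the paralogs thus moved by 0.78 between the groups with no overlap. The two-sided exact permutation p was 0.333, the smallest that 2 against 2 arrays allow, and 0.381 after Benjamini-Hochberg adjustment over the 8 pairs of members compared within a class. The greater fall of Ccne2 is therefore a description.

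Of the 3 D-type cyclins, which link growth signals to CDK4 and CDK6, only Ccnd2 was called. Ccnd2 fell: its brightest probe set read 11.93 and 12.17 with p53 off and 11.54 and 11.54 with p53 on. The p53 on arrays were alike and both below the lower p53 off array. The change was -0.51 ± 0.099 (SE, n = 2 against 2; 1.42-fold lower; limma adjusted p = 0.0155). Ccnd2 had 7 probe sets, and in all 7 both p53 on arrays lay below both p53 off arrays. Their changes ran from -0.17 to -0.80, and 6 of the 7 were called as lower in the fit over all probe sets, where 11.5% of probe sets were called lower. These probe sets read the same RNA and are not replicates, and 5 of the 6 calls were lost without p53 off replicate 2. The call of Ccnd2 was lost without p53 off replicate 2, the higher of the pair, at a change of -0.39 (limma adjusted p = 0.087; range 0.0081 to 0.087 over the alternatives).

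Ccnd1, which encodes cyclin D1, the D-type cyclin most closely tied to RAS signalling, was not called. It read 12.87 and 12.94 with p53 off and 13.06 and 13.15 with p53 on. Both p53 on arrays were slightly above both p53 off arrays, by a change of 0.20 ± 0.078 (SE, n = 2 against 2; limma adjusted p = 0.114). Its 95% interval ran from 0.01 to 0.40, so a halving of Ccnd1 RNA lies outside it, as does a doubling. The other probe sets of Ccnd1 gave 0.11 and 0.03, with overlapping groups. With spike-in scaling of the arrays Ccnd1 was called as higher (change 0.33; limma adjusted p = 0.0314; range 0.0314 to 0.445), a scaling that moves the median change of all genes from 0.02 to 0.15.

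Ccnd3 depended on the probe set. The brightest read 10.27 and 10.40 with p53 off and 10.44 and 10.57 with p53 on, a change of 0.17 ± 0.088 that was not called (SE, n = 2 against 2; limma adjusted p = 0.219; 95% interval -0.05 to 0.39). The dimmest of its 3 probe sets read 7.32 and 6.62 with p53 off and 7.93 and 8.38 with p53 on, a change of 1.19 ± 0.26 that was called as higher (limma adjusted p = 0.0267). The p53 off arrays of this probe set differed from each other by 0.70. Its call was lost with the replicate block (limma adjusted p = 0.0661). The same held without p53 off replicate 2 (change 0.84) and without p53 on replicate 2 (change 0.96). The third probe set gave 0.26 ± 0.097 and was not called. In all 3 the p53 on arrays were above the p53 off arrays. The difference between the dimmest and the brightest probe set was itself fitted with limma, among 16752 such differences within genes, of which 23.3% were called. It moved by 1.02 ± 0.26 between the groups (limma adjusted p = 0.0306). That call was lost without p53 off replicate 2 (0.61; adjusted p = 0.0866) and without p53 on replicate 2 (0.86; adjusted p = 0.0884; range 0.0067 to 0.0884). With the mean of all its probe sets Ccnd3 was called as higher, at 0.54 (limma adjusted p = 0.0253; range 0.0253 to 0.586 over the alternatives).

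Within arrays, Ccnd1 minus Ccnd2 was 0.94 and 0.77 with p53 off and 1.53 and 1.61 with p53 on, and Ccnd2 minus Ccnd3 was 1.66 and 1.77 with p53 off and 1.09 and 0.98 with p53 on. Both ratios separated the groups without overlap, moving by 0.71 and -0.68. Ccnd1 minus Ccnd3 moved by 0.03, with overlapping groups, and by -0.43 where a gene's probe sets were averaged. The exact permutation p was 0.333 for each of the first pair of ratios, again the smallest possible.

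**Figure D2:**
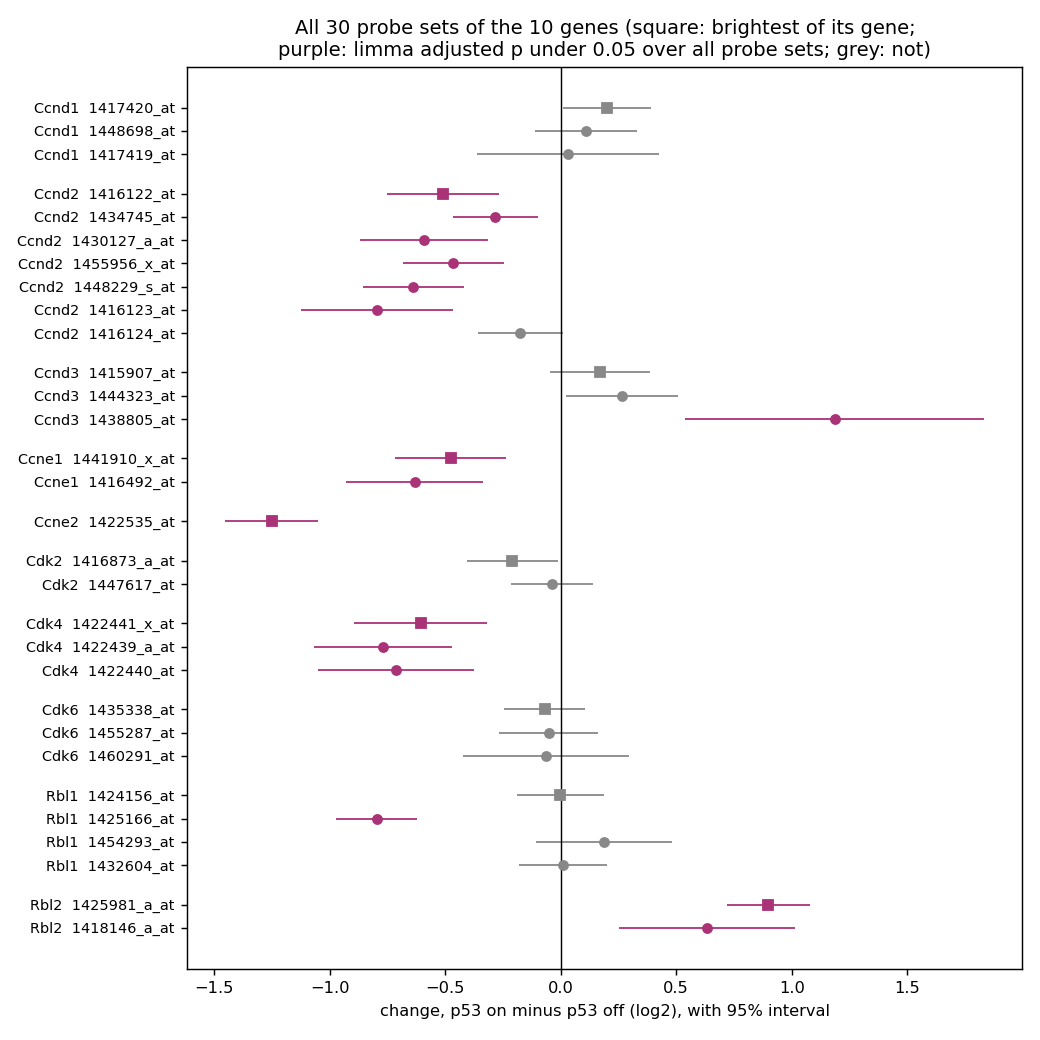
Change (p53 on minus p53 off, log2, horizontal axis) with its 95% interval for all 30 probe sets, grouped by gene and ordered by brightness; squares mark the brightest of a gene, purple a limma adjusted p under 0.05 over all probe sets, grey the rest. In the plot, 6 of 7 Ccnd2 probe sets and all 3 of Cdk4 are purple and left of 0, both of Rbl2 are purple and right of 0, and 1 of 4 Rbl1 probe sets stands apart at -0.80.

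Among the kinases Cdk4 alone was called, and it fell. Cdk4, the partner of the D-type cyclins, read 11.37 and 11.53 with p53 off and 10.71 and 10.97 with p53 on. The groups did not overlap, and the gap between them exceeded the spread within either. The change was -0.61 ± 0.12 (SE, n = 2 against 2; 1.52-fold lower; limma adjusted p = 0.0147). Its other 2 probe sets fell by 0.77 and by 0.71 on the log2 scale, so all 3 were called, and 1 of the 3 without p53 off replicate 2. The call of the brightest was lost without p53 off replicate 2 (-0.53; limma adjusted p = 0.0996) and with a crossed replicate block (0.0588), against a range of 0.0049 to 0.0996 over the alternatives.

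Cdk6, which binds the same cyclins, read 11.21 and 11.23 with p53 off and 11.12 and 11.18 with p53 on. The groups were barely apart, with neighbouring arrays 11.21 and 11.18. The change was -0.07 ± 0.072 (SE, n = 2 against 2; limma adjusted p = 0.529), with a 95% interval of -0.25 to 0.11, and its sign turned after quantile normalization (0.030) and after spike-in scaling (0.061). The other 2 probe sets gave -0.05 and -0.06. Cdk2, the partner of the E-type cyclins, read 10.63 and 10.67 with p53 off and 10.38 and 10.50 with p53 on. Both p53 on arrays were lower, but the change of -0.21 ± 0.081 was not called (limma adjusted p = 0.113; 95% interval -0.41 to -0.01). Its second probe set lay near the lowest values of the table (4.82 to 4.88) and gave -0.04. Cdk4 minus Cdk6 was 0.16 and 0.29 with p53 off and -0.42 and -0.20 with p53 on, and so moved by -0.54 with no overlap (exact permutation p = 0.333). Over the 8 pairs within a class, 7 separated the groups. Of all single genes 66.7% did, and no such share was computed over pairs of genes. The 7 pairs are therefore not read as a result about the members.

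The stretch around the start site of Cdk4 is shown because the gene fell in every probe set and carries repeats of 1 short word. In the RefSeq table (GRCm38.p6) it covers chr10:127063285-127063584 on the plus strand, from 250 bases before to 50 bases after the start, and capitals mark CACGTG, the E-box letters that MYC and MAX can bind.
Cdk4: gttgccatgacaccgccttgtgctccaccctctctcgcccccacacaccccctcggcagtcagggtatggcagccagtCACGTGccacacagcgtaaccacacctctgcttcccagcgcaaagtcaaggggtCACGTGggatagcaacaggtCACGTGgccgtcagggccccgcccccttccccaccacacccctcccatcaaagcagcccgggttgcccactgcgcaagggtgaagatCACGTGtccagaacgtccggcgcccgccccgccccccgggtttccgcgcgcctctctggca
The letters CACGTG, which read the same on both strands, occurred 4 times here, beginning at -172, -118, -98 and -11 from the start site. Among the 32851 stretches of the same length in that table, 7.15% held the letters at least once. This search was added after the sequence had been read. Myc itself, a transcription factor gene induced by mitogens, read 11.16 and 11.21 with p53 off and 9.64 and 9.77 with p53 on, a change of -1.48 ± 0.082 (SE, n = 2 against 2; limma adjusted p = 0.00051). Any link between the letters and the changes was not tested. Cdk6, which was not called, held CACGTG 1 time.

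Of the pocket protein genes among the members, Rbl2 was called with its brightest probe set and Rbl1 was not. Rbl2, which encodes p130, the pocket protein of resting cells, rose. It read 8.14 and 8.16 with p53 off and 9.02 and 9.08 with p53 on. The arrays of each group were within 0.06 of each other, and the groups were far apart. The change was 0.90 ± 0.073 (SE, n = 2 against 2; 1.86-fold higher; limma adjusted p = 0.0012), and it kept its call under all 13 alternatives, with sizes from 0.77 to 1.03 and adjusted p from 0.00049 to 0.0156. The second probe set read 7.37 and 7.77 with p53 off and 8.10 and 8.31 with p53 on, a change of 0.63 ± 0.15 (limma adjusted p = 0.0357). The latter call was lost without p53 off replicate 1 (0.43), without p53 on replicate 2 (0.53), with quantile normalization and with the crossed block.

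Rbl1, which encodes p107, was not called with its brightest probe set. That probe set read 8.67 and 8.67 with p53 off and 8.62 and 8.72 with p53 on. The p53 on arrays lay on either side of the p53 off arrays. The change was -0.00 ± 0.077 (SE, n = 2 against 2; limma adjusted p = 0.991), with a 95% interval of -0.20 to 0.19. The second brightest probe set, which the platform annotation ties to another transcript record of Rbl1, read 6.71 and 6.66 with p53 off and 5.90 and 5.88 with p53 on. Here the groups were well apart. It changed by -0.80 ± 0.071 (limma adjusted p = 0.0018) and kept this call under all 10 alternatives in which it was tested, with adjusted p from 0.00057 to 0.0202; it was among the dimmest 40% of probe sets and so was not tested without them. The remaining 2 probe sets of Rbl1, which were dimmer still, gave 0.19 and 0.01 and were not called.

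The second brightest minus the brightest probe set of Rbl1 was -1.96 and -2.01 with p53 off and -2.72 and -2.85 with p53 on. It moved by -0.80 ± 0.10 between the groups in the limma fit over all 16752 within-gene differences (adjusted p = 0.0032), and stayed called under each of 7 alternatives (adjusted p from 0.0027 to 0.0227). This fit was chosen after the probe sets had been seen to differ. A gene-level statement on Rbl1 thus depends on which probe set is read. With the brightest probe sets, Rbl1 minus Rbl2 was 0.54 and 0.51 with p53 off and -0.40 and -0.36 with p53 on, a move of -0.90 (exact permutation p = 0.333).

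Next, the letters of E2F sites are set beside the changes. The stretches shown surround the start sites of Rbl2, Rbl1, Ccne1 and Cdk2. They come from the same RefSeq table (GRCm38.p6), each from 250 bases before to 50 after the start and written 5′ to 3′ along the gene: Rbl2 at chr8:91069807-91070106 (plus strand), Rbl1 at chr2:157204485-157204784 (minus strand), Ccne1 at chr7:38107441-38107740 (minus strand) and Cdk2 at chr10:128705002-128705301 (minus strand). Capitals mark core letters of E2F sites, searched as TTCCCGC together with the variant TTGGCGC and, as further variants, TTCGCGC as well as the word TTGCCGC. They also mark TTTGAA, the letters of the CHR element bound by DREAM and MuvB, on either strand; none of the matches overlap.
Rbl2: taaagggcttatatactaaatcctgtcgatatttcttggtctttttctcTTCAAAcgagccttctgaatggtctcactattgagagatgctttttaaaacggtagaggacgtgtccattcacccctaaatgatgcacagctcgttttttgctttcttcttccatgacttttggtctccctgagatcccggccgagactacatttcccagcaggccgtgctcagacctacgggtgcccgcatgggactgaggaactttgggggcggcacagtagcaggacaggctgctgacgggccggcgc
Rbl1: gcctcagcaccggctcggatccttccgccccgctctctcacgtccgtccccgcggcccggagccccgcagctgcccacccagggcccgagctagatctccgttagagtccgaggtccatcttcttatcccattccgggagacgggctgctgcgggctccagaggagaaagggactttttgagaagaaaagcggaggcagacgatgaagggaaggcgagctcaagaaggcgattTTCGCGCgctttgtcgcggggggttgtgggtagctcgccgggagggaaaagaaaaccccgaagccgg
Ccne1: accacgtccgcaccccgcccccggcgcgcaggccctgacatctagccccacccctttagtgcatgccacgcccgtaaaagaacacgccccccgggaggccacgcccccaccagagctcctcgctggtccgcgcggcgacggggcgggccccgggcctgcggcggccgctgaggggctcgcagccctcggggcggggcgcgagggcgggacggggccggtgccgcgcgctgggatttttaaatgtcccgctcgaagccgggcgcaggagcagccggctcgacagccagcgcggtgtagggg
Cdk2: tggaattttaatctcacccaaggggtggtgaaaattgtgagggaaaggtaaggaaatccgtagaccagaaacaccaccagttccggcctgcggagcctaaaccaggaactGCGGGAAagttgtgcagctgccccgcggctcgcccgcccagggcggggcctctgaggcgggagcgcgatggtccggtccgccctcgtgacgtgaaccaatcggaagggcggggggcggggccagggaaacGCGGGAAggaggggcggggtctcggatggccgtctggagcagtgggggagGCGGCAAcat
The E2F letters were found 1 time in Rbl1, beginning at -17 from the start site, and 3 times in Cdk2, at -140, -10 and 40. They were not found in this window of Rbl2, Ccne1, Cdk4, Cdk6 or either Ccnd3 entry, and 9.57% of the 32851 stretches held them. TTTGAA was found 1 time, in Rbl2, where it reads TTCAAA, and 17.9% of all stretches held it. Neither gene with E2F letters in its window was called by its brightest probe set, and Ccne1, which fell, had none there. The search had been planned for called members only, so Rbl1 and Cdk2 lay outside that plan. These are descriptions of a short window and not of binding. Whether the E2F or CHR letters have any link to the changes was not tested. Of the 10 members 7 had an entry in the table; Ccnd1, Ccnd2 and Ccne2 did not.

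The rest of the circuit was read from 7 lists with 73 measured genes, of which 11 rose and 35 fell; without p53 off replicate 2 these counts were 4 and 18. Beside the counts of each list, 14.7% of all genes were called lower and 14% higher. S phase genes that E2F factors switch on were lower. Of 17 measured genes 14 fell and 0 rose, with a median change of -0.79 against 0.02 over all genes. The falls of largest size were those of Rrm2, a ribonucleotide reductase subunit gene (-1.64 ± 0.15), Tk1, the thymidine kinase gene (-1.28 ± 0.19), Ccna2, the cyclin A2 gene (-1.26 ± 0.089), and Mcm4, a subunit gene of the replicative helicase (-1.12 ± 0.11). Rrm1 (-0.29), Orc1 (-0.03) and Tyms (0.09) were not called. Tyms was the dimmest gene of this list, where a fall is harder to see. It read 6.11 and 5.93 with p53 off and 5.95 and 6.26 with p53 on.

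Genes that activate CDKs or set cyclin turnover fell in 8 of 10 cases and rose in 0, with a median of -0.63. Skp2, whose ubiquitin ligase degrades p27, changed by -1.18 ± 0.13, Cdc25a, the phosphatase that activates CDK2, by -1.08 ± 0.14, and Cks1b, a partner of Skp2, by -1.06 ± 0.12. Fbxw7, which takes cyclin E to degradation, changed by -0.84 ± 0.074. Cdk7 and Mnat1, 2 of the 3 subunits of the CDK-activating kinase, changed by -0.64 and -0.63, while Ccnh, the third, at -0.15 was not called.

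CDK inhibitor genes moved both ways, with 4 of 7 higher and 2 lower (median 0.35). Cdkn1a, the p21 gene, rose by 1.44 ± 0.099, Cdkn2b by 0.71 ± 0.072, Cdkn2c by 0.43 ± 0.090 and Cdkn1c by 0.35. Cdkn2b and Cdkn2c encode inhibitors of CDK4 and CDK6. So do Cdkn2a, which was called lower, and Cdkn2d, which was not called. Cdkn2d changed by -0.37, with both p53 on arrays below both p53 off arrays. Cdkn2a changed by -0.43 ± 0.074, and Cdkn1b, the p27 gene, by -0.32. The calls of Cdkn2a and Cdkn2c were lost without p53 off replicate 1 and without p53 off replicate 2, and that of Cdkn2c also without p53 on replicate 2 and with the crossed block.

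Of 10 E2F and DP genes 5 fell and 1 rose (median -0.32). E2f8, a repressor of E2F targets, changed by -1.55 ± 0.12, Tfdp2 and Tfdp1, the DP partners of E2F, by -0.60 ± 0.094 and -0.52 ± 0.096, E2f6 by -0.60 ± 0.071 and E2f3 by -0.28. E2f5, which binds p130, rose by 0.34, and E2f4, its close relative, at -0.05 was not called. Of 6 DREAM and MuvB genes only Lin9 was called, at -0.78 ± 0.10 (median -0.15). The call of Tfdp2 was lost with the mean of all its probe sets (-0.16) and that of Tfdp1, like that of Tfdp2, without p53 off replicate 2.

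Inducers of D-type cyclins split evenly, with 4 of 12 higher and 4 lower (median 0.10). Egr1, an immediate early gene, rose by 1.44 ± 0.071 and Jun, an AP-1 subunit gene, by 0.61 ± 0.096. Fosl1, the AP-1 subunit gene that follows sustained RAS output, changed by -1.39 ± 0.10, beside the fall of Myc. Of 11 cyclins and CDKs of transcription, a related group outside the cell cycle, 2 rose and 1 fell (median 0.02), a share near the 28.7% of all genes called. Cdk19, a Mediator kinase gene, rose by 0.66 ± 0.082 and Ccnl2 by 0.41 ± 0.099. Ccnc changed by -0.47 ± 0.094, but by 0.059 where its probe sets were averaged. The calls of Jun, Ccnl2 and Ccnc were each lost without p53 off replicate 2, that of Ccnl2 also in 3 other alternatives.

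**Figure D3:**
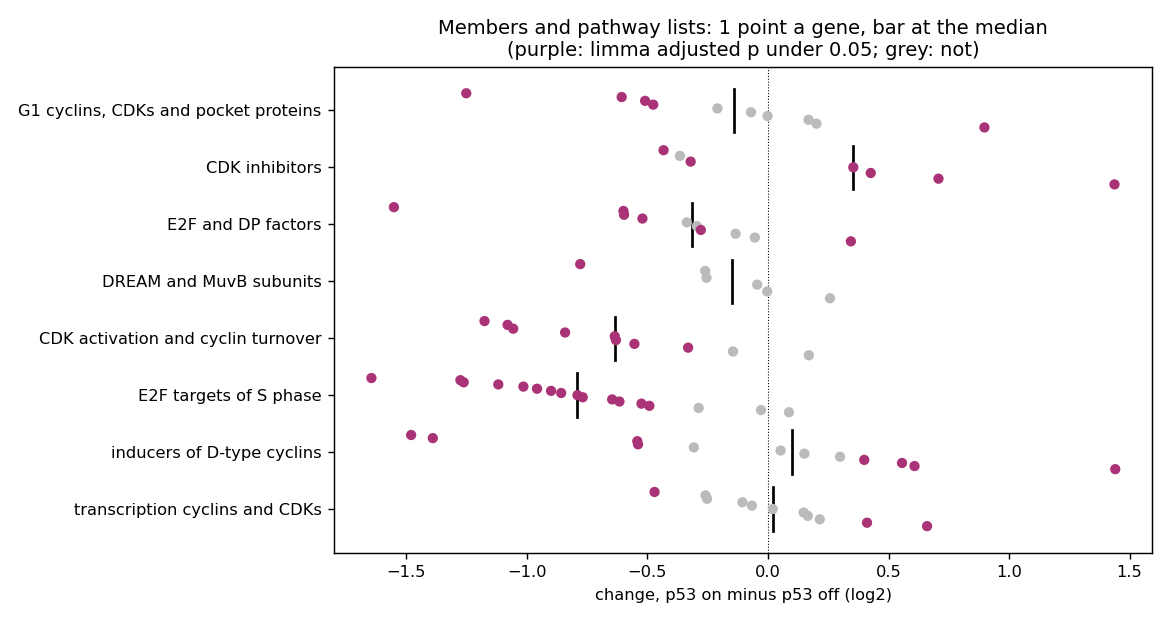
Change (p53 on minus p53 off, log2, horizontal axis) of the 10 member genes and of the genes of 7 pathway lists, 1 point a gene, purple where the limma adjusted p was under 0.05 and grey where not, with a bar at each median. E2F targets of S phase (median -0.79) and genes of CDK activation and cyclin turnover (median -0.63) lie mostly left of 0, while the members spread from -1.25 to 0.90.

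The genes with the pattern most like that of Rbl2, by the Euclidean distance of 4 array values centred on each gene's mean, were Mapk12 (0.022), Notch4 (0.024) and Mapkbp1 (0.027). Their changes were 0.92, 0.90 and 0.89. For Ccne2 they were Vegfc (0.023), Insig1 (0.044) and Nmt2 (0.051), with changes of -1.27, -1.30 and -1.23. The distance over 4 arrays takes in the size of the change and the gaps between replicates.

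Markers of other cell types moved with the groups too. Fewer cells of a type and less RNA per cell cannot be told apart in bulk tumor RNA. Of 8 macrophage markers 6 rose, of 8 endothelial markers 7 and of 8 fibroblast and stellate markers 8. Of 8 measured lymphocyte markers 2 rose (Ptprc and Ncr1), and 0 fell in each of these lists. Among all genes 14% were called higher and 14.7% lower. Summed linear values of the macrophage markers were 16217 and 17810 with p53 off and 33150 and 28096 with p53 on. Those of the endothelial markers were 4007 and 4043 with p53 off and 6809 and 7964 with p53 on. Those of the fibroblast markers were 54049 and 47159 with p53 off and 89778 and 91526 with p53 on. Those of the lymphocyte markers were 3168 and 3235 with p53 off and 5140 and 4365 with p53 on. The lymphocyte sum mainly follows Ptprc, a gene of leukocytes in general and not of lymphocytes alone. Ptprc was by far the brightest of that list (11.05 and 11.11 with p53 off, 11.94 and 11.63 with p53 on). Of the 8 measured lymphocyte markers 6 were not called. Of 8 progenitor and biliary markers 4 fell and 1 rose (Krt8 by -1.36, Krt18 by -1.61, Krt19 by -1.04, Sox9 by -0.81, Epcam by 0.52), and the sum went from 36345 and 42626 in p53 off to 16671 and 15363 in p53 on. RMA values have no 0, so no marker was at 0. The B and T cell markers Cd79a, Ms4a1 and Cd3g lay between 5.57 and 6.90 in every array. The T cell markers Cd3e, Cd4 and Cd8a lay higher, between 7.41 and 8.65. None of these was called, but for Cd3e and Cd4 both p53 on arrays lay above both p53 off arrays. Of 7 hepatocyte markers 0 were called by limma, 1 (Fgb) having an unadjusted p under 0.05, and Alb read 6.96 to 7.39 over the 4 arrays. Afp, a progenitor marker, read 9.16 and 9.15 with p53 off but 8.47 and 5.33 with p53 on. The part of these shifts in the changes of the G1 genes, Rbl2 and Ccnd3 included, was not tested.

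The medians of the arrays were 7.34 and 7.29 with p53 off and 7.39 and 7.39 with p53 on. The 3' minus 5' difference of the beta-actin control, a sign of RNA quality, was 0.39 and 0.26 with p53 off and 0.48 and 0.49 with p53 on; its part in the results was not tested. Of 18193 genes 2550 were called higher and 2673 lower, against 2110 and 3451 with arrays centred on their median and 4421 and 1892 with spike-in scaling. Under all 3 of these scalings Ccne2, Cdk4, Ccnd2 and Ccne1 were called lower and Rbl2 higher.

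**Figure D4:**
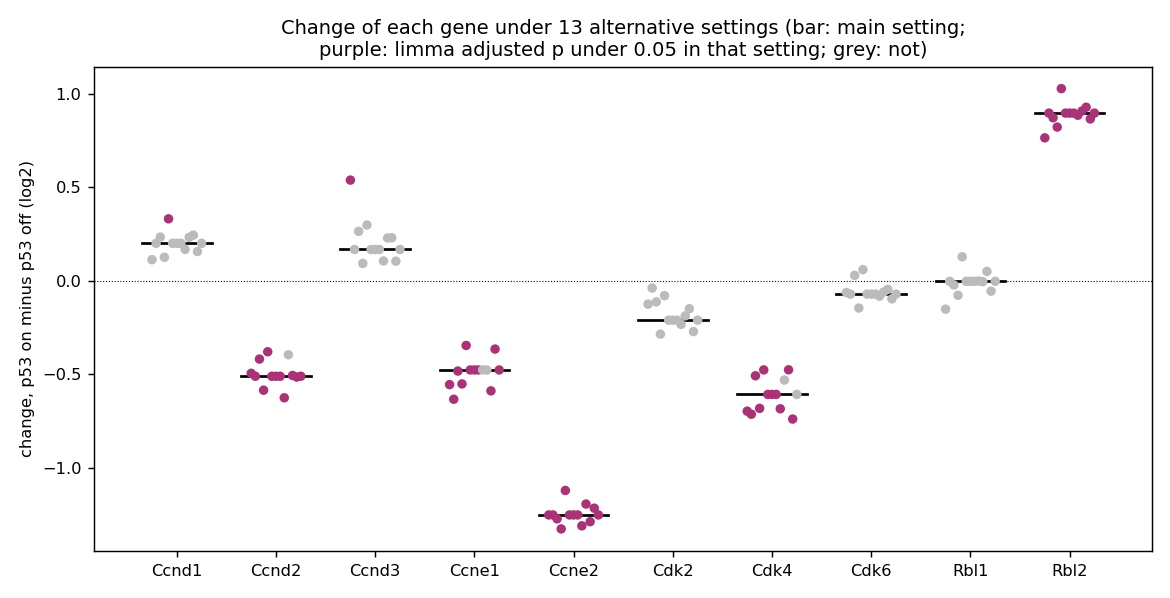
Change (p53 on minus p53 off, log2, vertical axis) of each of the 10 genes under 13 alternative settings, 1 point a setting, purple where the limma adjusted p was under 0.05 and grey where not, with a bar at the main value. Ccne2 (-1.33 to -1.12) and Rbl2 (0.77 to 1.03) are purple throughout, Ccnd2, Ccne1 and Cdk4 in most settings, and Cdk6 and Rbl1 straddle 0.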

How the data were processed

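Total RNA of 4 mouse liver tumor samples was biotin-labelled and hybridized to 1 Affymetrix mouse array each, per the labels. The authors deposited log2 values made with RMA, which corrects background, quantile-normalizes and summarises probes. RMA and limma 3.14.4 are named in the submitters' processing notes. RMA gives no detection call. Changes of dim probe sets may be compressed, which was not measured here. A platform annotation table named the probe sets; 34945 of 45101 had exactly 1 symbol, and the 64 control probe sets were left out.

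Each gene took the values of its brightest probe set (highest mean over the arrays). Genes, all 45037 probe sets and within-gene differences between probe sets were fitted with limma 3.58.1 (R 4.3.3; 2 residual and 5.47, 5.53 and 6.88 moderated degrees of freedom), without a block. The fit was tested on simulated data. The members and lists were chosen with earlier results of these data known. The rule named all members, up to 4 called genes of largest change in each list (in a list without calls, the gene of lowest p) and the 3 nearest genes of Ccne2 and Rbl2; others named (among them Cdkn1c, Cdkn1b, E2f3, E2f4, E2f5, Rrm1, Orc1, Tyms, Cdk7, Mnat1, Ccnh and the markers Epcam, Alb, Afp, Cd79a, Ms4a1 and Cd3g) were chosen after their values were seen. The number of arrays limits the precision. The alternatives were other scalings, the mean of a gene's probe sets, no dim genes (lowest 40%) and trend and robust eBayes. Others were a replicate block, each array left out, and a gene's brightest probe set with no x, s or a mark in its name. That last setting gave Cdk2 its probe set near the lowest values and left Rbl2, with marks on both probe sets, unchanged. The main probe sets of Cdk4 and Ccne1 carry an x, a mark of possible cross-hybridization. Their unmarked probe sets gave -0.71 and -0.63. Protein sequences were not used here. The build behind the authors' array values is not named in the labels; the promoter stretches come from a separate RefSeq table. Figures were drawn with matplotlib 3.10.9.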

Additional observations from a re-analysis of the deposited data

How the results depend on the processing

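Over the alternatives, 5 member genes were called with the replicate number as a block, as in the main fit, and this block changed no call among the member genes; over probe sets it called 14 against 16. The differences between replicates 1 and 2 were only weakly, and negatively, correlated between the groups (-0.154 over genes). The crossed pairing was added after seeing the data. It called 4 member genes, 10 member probe sets (8 lower) and 38 pathway genes. The labels give only a number, so neither pairing is taken as the design. Member genes called higher were 2 with the mean of all probe sets (Ccnd3 added) and 2 with spike-in scaling (Ccnd1 added), against 1, and member probe sets called higher were 5 with spike-in scaling, against 3. Leaving out each array in turn gave 2 to 5 member genes (1 to 4 lower), 6 to 15 member probe sets (1 to 3 higher, 4 to 12 lower) and 22 to 44 pathway genes (4 to 10 higher, 18 to 34 lower), the fewest without p53 off replicate 2 except for probe sets called higher, fewest without p53 on replicate 2; the lone array of a group was then assumed to vary like the other group. Without p53 off replicate 2, only Ccne2 and Rbl2 stayed called among the member genes.

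Signs turned only for values that were not called, apart from Ccnc, at 0.059 with the mean of its probe sets. After quantile normalization Cdk6 was at 0.030, its second probe set by brightness at 0.051 and the dimmest Rbl1 probe set at -0.025. After spike-in scaling Cdk6 was at 0.061, its other probe sets at 0.079 and 0.067, Rbl1 at 0.13 and the dimmer Cdk2 probe set at 0.093. With arrays centred on their median the dimmest probe sets of Ccnd1 and Rbl1 were at -0.043 and -0.066. Leaving out 1 array, Rbl1 ran from -0.055 to 0.051, its dimmest probe set from -0.031 to 0.048, the dimmest Ccnd1 probe set from -0.14 to 0.20, and the Cdk6 probe sets from -0.14 to 0.032 (second) and from -0.26 to 0.13 (dimmest). The cause of these shifts was not tested.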
